A study of Mus musculus with 6 samples.

Results

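The glutathione, thioredoxin and antioxidant enzymes were followed in 6 mouse breast tumours, 3 control and 3 knockout, on an Illumina bead array with 1 array per tumour. Genes were taken by symbol: every glutathione transferase of the Gsta, Gstm, Gstp, Gstt, Gsto, Gstk and Mgst families, every Gpx and Prdx gene, and Txn1, Txn2, Txnrd1, Txnrd2, Sod1, Sod2, Sod3, Cat, Gclc, Gclm, Gss, Gsr, Nqo1, Hmox1, Srxn1, Nfe2l2 and Keap1. This gave 97 probes of 52 genes, out of 19057 genes named on the array, and 61 probes of 44 genes were bright enough to be tested. Gclc, Gpx5, Gpx6, Gsta1, Gstm3, Gstm7, Gstp3 and Gstt4 had probes but none above background on at least 3 of the 6 arrays. Gsr, Prdx5 and Prdx6 had no probe named for them and were not analysed here.

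Both groups of mice were FVB with floxed Cyp27b1 alleles, labelled Cyp27b1 flox/flox;Cre- for the control and Cyp27b1 flox/flox;Cre+ for the knockout tumours. Cyp27b1 encodes the enzyme that activates vitamin D, and the series title places its loss in the mammary epithelium. The sources used here do not name the promoter that drives Cre, the way the tumours arose or the ages of the mice. Because only knockout tumours carried Cre, its own effect and the loss of the gene cannot be told apart. The design text gives 3 samples of each kind of mouse, and the labels do not say which animal each tumour came from. The p-values therefore rest on the spread among these tumour samples, which may be technical.

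The array cannot show the deletion, since the sole Cyp27b1 probe lay between 4.29 and 4.41 on the normalized log2 scale and was not above background in any tumour. Summed signals ran from 1.07e+07 to 1.48e+07 and 33.4% to 36.1% of probes were above background per array. Luminal markers were present, with 13 of the 17 listed measured.

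Glutathione is a small thiol that cells join to reactive compounds through glutathione transferases and spend on peroxides through glutathione peroxidases. Thioredoxin and the peroxiredoxins form a parallel thiol system, superoxide dismutases and catalase remove superoxide and hydrogen peroxide, and haem oxygenase and quinone reductase act on haem and quinones. Many of these genes are induced by the transcription factor NRF2, encoded by Nfe2l2, which KEAP1 holds low until oxidants or electrophiles modify it.

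In the knockout tumours 6 of the 44 measured genes were called, beside 10.1% of all 9354 genes measured on the array: 5 fell and 1 rose. Gstm2, Gpx7, Gpx8, Hmox1 and Srxn1 fell, and Mgst1 rose. A gene was called at a limma adjusted p below 0.05, taken over all 15885 probes tested, on its brightest probe, and all changes are knockout minus control on the log2 scale. The falls were 11.4% of the genes measured here, beside 5.63% of all 9354 genes measured on the array, and the rise was 2.27%, beside 4.47%. By probe, 12 of 61 were called, 1 higher and 11 lower, where 9.20% of all tested probes were called, 4.14% higher and 5.06% lower. The median change of the 44 genes was -0.18, beside 0.05 over all genes. Setting Gsto2 and Gstp2, undetected in the knockout tumours, at their bounds could not move this median, since both stay below it. At an unadjusted p below 0.05 12 genes were lower (27.3%, beside 13.1% of all genes) and 4 higher (9.09%, beside 13.4%).

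**Figure D1:**
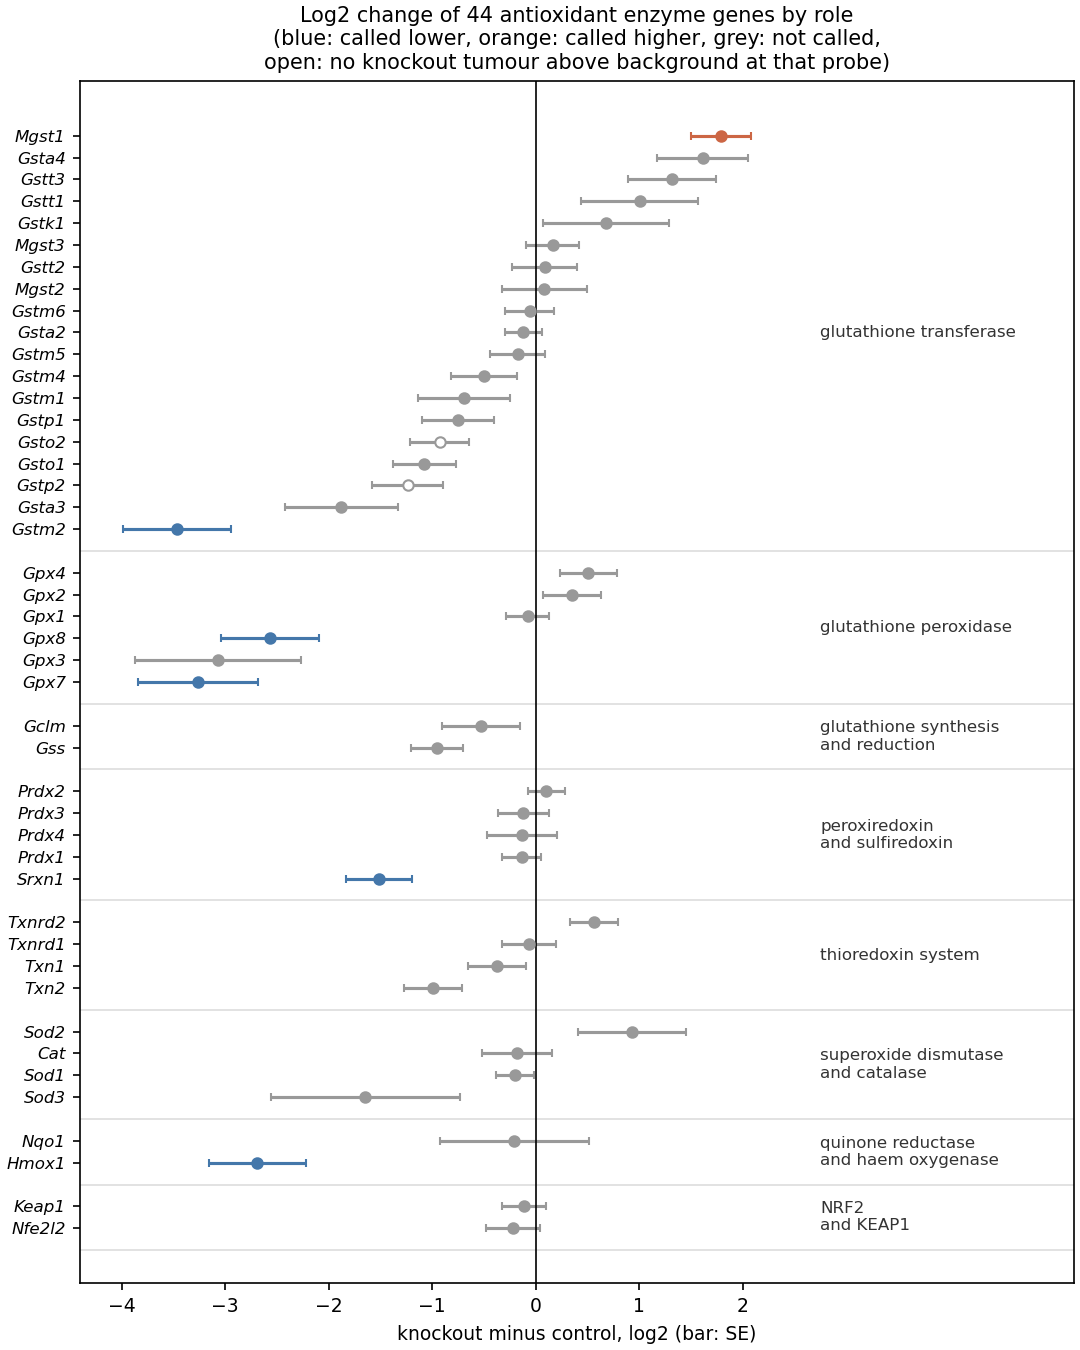
Log2 change of each of the 44 measured antioxidant enzyme genes (points, knockout minus control on the horizontal axis) with its SE (bars), grouped by role. The called genes are Mgst1 at 1.80 on the right and Gstm2, Gpx7, Hmox1, Gpx8 and Srxn1 between -3.46 and -1.51 on the left, while the 4 peroxiredoxins lie between -0.13 and 0.10.

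Control and knockout tumours did not overlap for 17 of the 44 genes, beside 32.1% of all genes. For 12 genes (27.3%, beside 14.9% of all genes) every knockout tumour lay below every control tumour, and for 5 (11.4%, beside 17.2%) every knockout tumour lay above. By probe, 25 of 61 did not overlap, beside 30.2% of all tested probes, with 5 above (8.20%, beside 16.4%) and 20 below (32.8%, beside 13.8%). The 20 genes that changed by less than 0.5 included Gpx1, Prdx1 to Prdx4, Sod1, Cat and Keap1. Among the 44 genes the lowest differences were those of Gstm2, Gpx7 and Gpx3, the last of which was not called.

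Markers of other cells moved with the groups. Of 14 measured markers of fibroblasts and matrix 7 fell and 0 rose, and their summed normalized signal was 37727 to 49235 in control and 5350 to 11618 in knockout tumours. Of 13 measured luminal markers 7 rose (53.8%, beside 4.47% of all genes) and 0 fell, with sums of 6052 to 14119 and 14600 to 29322. Postn and the luminal factor Ehf were not above background on any array. The part of these shifts in the results given here was not tested, and in whole tumours fewer cells of a type and less RNA per cell cannot be told apart.

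Of 19 measured glutathione transferases Gstm2 fell, Mgst1 rose and the other 17 were not called. These shares, 5.26% lower and 5.26% higher, lay near the 5.63% and 4.47% of all genes. The mu class gene Gstm2 had log2 values of 11.66, 10.83 and 12.16 in control tumours 1, 2 and 3 and of 7.07, 8.16 and 9.02 in knockout tumours 1, 2 and 3. Every knockout tumour lay below every control tumour, with knockout 1 lowest. The change was -3.46 ± 0.52 (SE, adjusted p = 0.0087), a signal 11.03-fold lower. Other probes of the gene, of which there were 2, gave -3.46 and -3.51 and were also called.

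The other mu class genes lie beside Gstm2 in the GRCm38.p6 gene table on chromosome 3. None of those measured was called, and Gstm3 and Gstm7 were too dim to be tested. Gstm1 had 7.002, 6.46 and 8.39 in the control and 6.47, 6.64 and 6.66 in the knockout tumours, so that the groups overlapped. Its change was -0.69 ± 0.45 (SE, adjusted p = 0.40). Gstm4, Gstm5 and Gstm6 gave -0.50, -0.17 and -0.06. Whether the change of Gstm2 differs from those of its neighbours was not tested. Mu class genes are close copies of each other, so a probe may also bind a neighbour's transcript and the share of each gene in a signal is uncertain.

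Mgst1, a membrane-bound transferase of the endoplasmic reticulum and mitochondria that also reduces lipid peroxides, was the member that rose. Its log2 values were 10.26, 10.39 and 11.23 in the control and 12.43, 12.62 and 12.20 in the knockout tumours. The groups did not overlap, and the knockout tumours lay close together (SD 0.21, n = 3). The change was 1.80 ± 0.29 (SE, adjusted p = 0.011), a 3.47-fold higher signal. Mgst2 and Mgst3, of the same membrane-bound family, gave 0.09 and 0.16 and were not called. A dimmer Mgst3 probe gave 0.61 and was not called either (limma adjusted p = 0.26).

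Among alpha class genes Gsta4, whose enzyme is known for conjugating hydroxynonenal from lipid peroxidation, had 8.52, 8.69 and 10.25 in the control and 10.48, 10.90 and 10.92 in the knockout tumours. Control 3 lay within 0.5 log2 units of knockout 1, and the other controls lay lower. The difference of 1.61 ± 0.44 (SE) was not called (adjusted p = 0.061). Gsta3 went the other way, with a difference of -1.88 ± 0.54 (SE, adjusted p = 0.071), and 1 of 3 knockout tumours was above background. Gsta2 gave -0.12.

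The theta class genes Gstt1, Gstt2 and Gstt3 gave 1.00, 0.09 and 1.32, and none was called. Gstt3 had 8.34, 8.67 and 8.55 in the control and 8.80, 10.60 and 10.12 in the knockout tumours, with knockout 1 near the controls (adjusted p = 0.10). Gstk1, the kappa class enzyme of mitochondria and peroxisomes, gave 0.68.

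The omega and pi class genes had lower values in the knockout tumours but none was called. Gsto1, which reduces dehydroascorbate, had a difference of -1.08 ± 0.31 (SE, adjusted p = 0.068), with 11.33 the lowest control and 11.25 the highest knockout value. The probe of Gsto2 was not above background in any knockout tumour, a signal at least 1.77-fold lower (adjusted p = 0.085), although another Gsto2 probe was above background in 1 of them. Gstp1 gave -0.75 at its brightest probe and -0.92 at a further probe (adjusted p = 0.23 and 0.085). No knockout tumour was above background for Gstp2, and its signal there was at least 2.09-fold lower (adjusted p = 0.062). Gstp1 and Gstp2 are near-identical copies, so which of them a probe measured is uncertain.

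**Figure D2:**
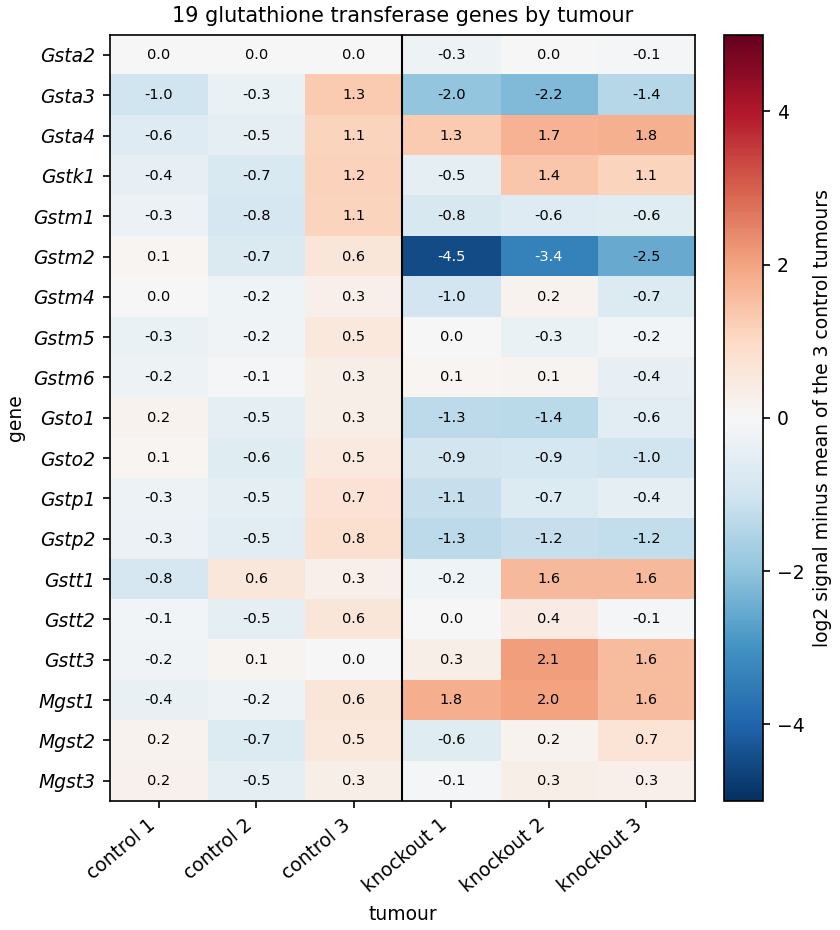
Signal of 19 glutathione transferase genes (rows) in each tumour (columns) as the log2 difference from the mean of the 3 control tumours, shown by colour and printed in each cell. Gstm2 is low and Mgst1 is high in all 3 knockout tumours, while Gstt1, Gstt3 and Gstk1 are higher in knockout 2 and 3 than in knockout 1.

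Of 6 measured glutathione peroxidases Gpx7 and Gpx8 fell (33.3%, beside 5.63% of all genes) and 0 rose. Gpx7 and Gpx8 are peroxidases of the endoplasmic reticulum that have a cysteine in place of selenocysteine and are known for feeding oxidising equivalents to protein disulfide isomerase. Gpx7 had 9.67, 9.10 and 9.20 in the control and 4.75, 6.08 and 7.35 in the knockout tumours. All knockout tumours were lower than all controls, and knockout 1 was not above background. The change was -3.26 ± 0.58 (SE, adjusted p = 0.015), a 9.60-fold lower signal, and -1.71 with the authors' values.

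Gpx8 had 10.98, 10.90 and 11.36 in the control and 8.398, 7.54 and 9.61 in the knockout tumours. The controls lay within 0.5 log2 units of each other and the knockout tumours spread more widely (SD 0.25 and 1.04, n = 3 each). The change was -2.56 ± 0.47 (SE, adjusted p = 0.017), a 5.91-fold lower signal. The other probes of Gpx8, of which there were 2, gave -2.41 and -2.33 and were called.

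Gpx3, the secreted peroxidase found in plasma and in the matrix around cells, had 10.47, 9.20 and 11.22 in the control and 5.65, 7.19 and 8.84 in the knockout tumours. The groups did not overlap, but both were wide (SD 1.02 and 1.59, n = 3 each). The difference of -3.07 ± 0.80 (SE) was not called (adjusted p = 0.053). Gstm2, Gpx7 and Gpx3 all had their lowest value in knockout 1 and their highest knockout value in knockout 3. The mean of the matrix markers stood in the same order, at -3.52, -2.51 and -1.65 log2 units from the control mean in knockout tumours 1, 2 and 3. So did the means of the basal and myoepithelial, endothelium, macrophage, and neutrophil and mast cell markers. Those of the other measured cell type lists did not stand in that order. The part of any of these in the values was not tested. At their brightest probes the other called falling genes, Gpx8, Hmox1 and Srxn1, did not follow that order. Their lowest knockout value there was in knockout 2, 2 and 1. A dimmer Gpx8 probe did follow it, with 7.47, 7.50 and 9.20 in knockout tumours 1, 2 and 3, and another was lowest in knockout 2.

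The selenocysteine peroxidases of the cell interior were not called. Gpx1, the main cytosolic peroxidase, had 12.62, 12.76 and 12.48 in the control and 12.36, 12.80 and 12.46 in the knockout tumours. The groups overlapped and the difference was -0.08 ± 0.21 (SE, adjusted p = 0.86). Gpx4, which reduces phospholipid hydroperoxides and holds back ferroptosis, gave 0.51 ± 0.28 (SE, adjusted p = 0.31) at its brightest probe, and 0.55 and 0.02 at the others. Gpx2, known from the gut lining, gave 0.35.

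**Figure D3:**
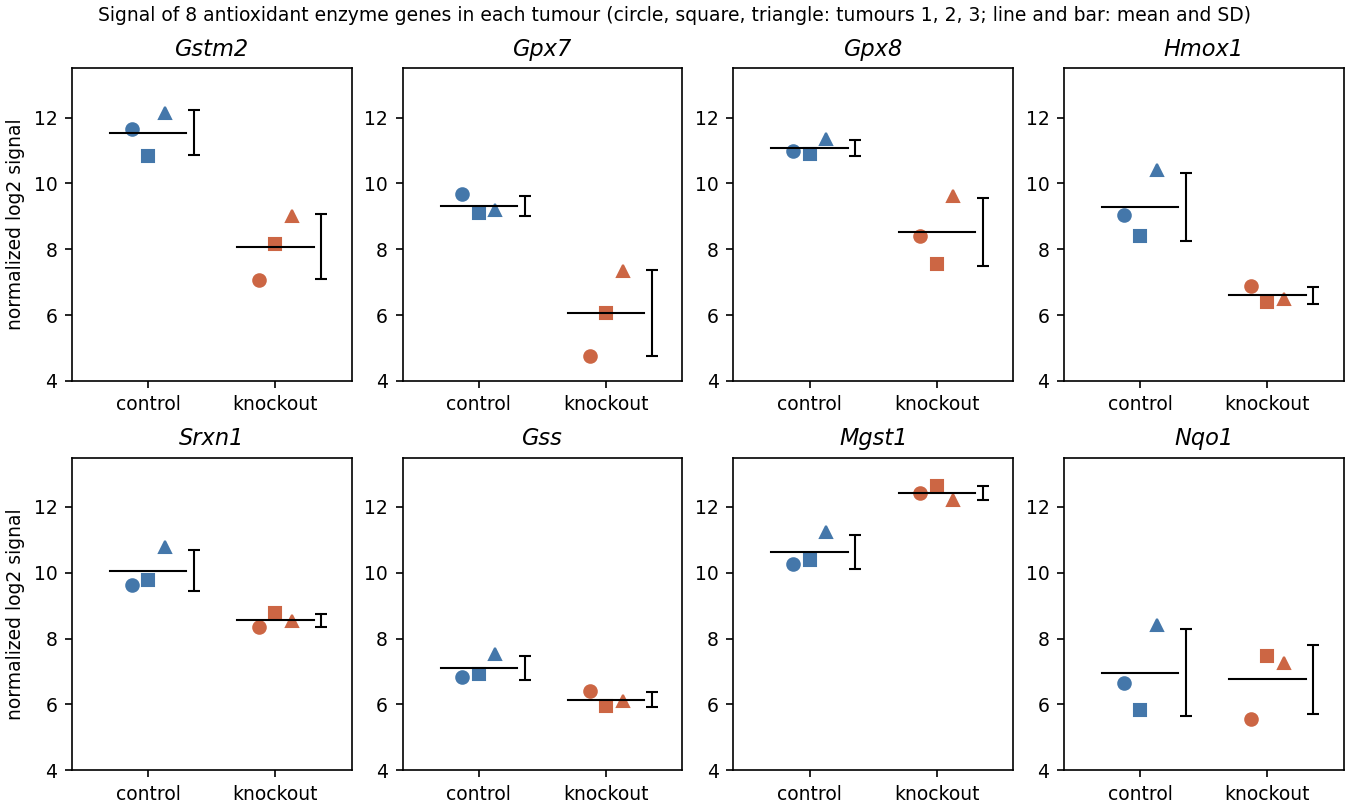
Normalized log2 signal (vertical axis) of 8 antioxidant enzyme genes in each control and knockout tumour (points), with the mean of 3 tumours (line) and its SD (bar). Control and knockout tumours are apart for Gstm2, Gpx7, Gpx8, Hmox1, Srxn1, Gss and Mgst1, and overlap for Nqo1.

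Glutathione itself is made in consecutive steps by glutamate-cysteine ligase, with its subunits Gclc and Gclm, and by glutathione synthetase, Gss. Gss had 6.84, 6.93 and 7.52 in the control and 6.39, 5.95 and 6.10 in the knockout tumours. The groups did not overlap, and the difference of -0.95 ± 0.25 (SE) was not called at the brightest probe (adjusted p = 0.053). A second probe of Gss was called at -1.01 (adjusted p = 0.0375) and the third gave -0.87 (adjusted p = 0.061). With the authors' values the brightest probe gave -0.35. Gclm, the regulatory subunit, had 8.49, 8.33 and 9.41 in the control and 8.73, 8.28 and 7.64 in the knockout tumours. These values overlapped, with a difference of -0.53 ± 0.37 (SE, adjusted p = 0.44).

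None of the 4 measured peroxiredoxins, which are abundant thiol peroxidases, was called. Prdx1 had 12.41, 12.66 and 12.65 in the control and 12.30, 12.56 and 12.47 in the knockout tumours. The differences of Prdx1, Prdx2, Prdx3 and Prdx4 were -0.13, 0.10, -0.12 and -0.13 with SEs of 0.19, 0.18, 0.25 and 0.34, and a dimmer Prdx2 probe gave -0.03. Prdx4 acts in the endoplasmic reticulum, as Gpx7 and Gpx8 do, and its control and knockout values overlapped.

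Srxn1, sulfiredoxin, restores peroxiredoxins that have been overoxidised. It had 9.62, 9.79 and 10.77 in the control and 8.36, 8.76 and 8.52 in the knockout tumours. No values overlapped, and the knockout tumours were close to each other (SD 0.20, n = 3). The change was -1.51 ± 0.32 (SE, adjusted p = 0.0265), a 2.85-fold lower signal, and another probe gave -1.38 (adjusted p = 0.039). With the authors' values the change was -1.21 and the call was lost (adjusted p = 0.0566).

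No gene of the thioredoxin system was called. Txn2, the mitochondrial thioredoxin, had 7.82, 7.51 and 7.29 in the control and 7.06, 6.43 and 6.15 in the knockout tumours. These did not overlap, and the difference was -0.99 ± 0.28 (SE, adjusted p = 0.067). Its reductase Txnrd2 gave 0.56 ± 0.23 (SE, adjusted p = 0.19), with every knockout tumour above every control, but a dimmer probe gave -0.10. The cytosolic pair was dim. Txnrd1 had 5.55, 4.96 and 5.03 in the control and 5.48, 5.07 and 4.80 in the knockout tumours, a difference of -0.06 ± 0.26 (SE, adjusted p = 0.92). Txn1 gave -0.38 at the sole probe tested and was above background in 2 control and 1 knockout tumours.

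Superoxide dismutases and catalase were not called either. Sod1, the cytosolic enzyme, gave -0.20 ± 0.18 (SE), and Cat gave -0.18 ± 0.34 (SE). Sod2, the mitochondrial enzyme, had 10.04, 11.002 and 11.54 in the control and 10.73, 12.30 and 12.35 in the knockout tumours. Knockout 2 and 3 lay above all controls and knockout 1 lay among them, with a difference of 0.93 ± 0.52 (SE, adjusted p = 0.32). Sod3, the extracellular enzyme, had 6.43, 6.32 and 9.81 in the control and 6.73, 4.97 and 5.92 in the knockout tumours. Control 3 stood far above the rest, and the difference was -1.65 ± 0.91 (SE, adjusted p = 0.32).

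Hmox1, which breaks down haem and is a standard NRF2 target, had 9.05, 8.41 and 10.41 in the control and 6.89, 6.41 and 6.49 in the knockout tumours. All knockout tumours lay below the lowest control, and they spread less (SD 1.02 and 0.26, n = 3 each). The change was -2.69 ± 0.47 (SE, adjusted p = 0.014), a 6.45-fold lower signal. It was -1.63 with the authors' values, where the call was lost (adjusted p = 0.0675). Hmox1 is also known from macrophages. Of the 12 macrophage markers with a probe 5 were measured and none was called, and Cd163, Fcgr1 and Mrc1 were above background on no array. The measured markers went both ways, 4 with a negative difference and 1, Cd14, with a positive one (median -0.566). Every knockout tumour lay above every control for Cd14 and below every control for Lyz1, while the groups overlapped for Lyz2, Csf1r and Aif1. The summed signal, which adds up these opposite directions, was 2160 to 13295 in control and 3550 to 10991 in knockout tumours. The part of macrophages in the fall of Hmox1 was not tested.

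Nqo1, the quinone reductase widely used to read NRF2 activity, had 6.65, 5.82 and 8.42 in the control and 5.55, 7.46 and 7.27 in the knockout tumours. The groups overlapped, and the difference was -0.21 ± 0.72 (SE, adjusted p = 0.90). Leaving out control 3 or knockout 1 turned it to 0.53 or 0.38. Nfe2l2 had 6.67, 6.91 and 7.13 in the control and 6.22, 6.81 and 7.01 in the knockout tumours, a difference of -0.22 ± 0.26 (SE, adjusted p = 0.68). Keap1 had 8.63, 8.10 and 8.30 in the control and 8.32, 8.26 and 8.11 in the knockout tumours. Its difference was -0.11 ± 0.21 (SE, adjusted p = 0.80), and its other probes, of which there were 3, gave -0.23 to 0.13. Transcript levels of Nfe2l2 and Keap1 do not measure NRF2 protein or its activity.

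To set the expression beside the sequence, the 250 bases before each start site were searched for the core of the antioxidant response element, TGACNNNGC, which NRF2 binds with a small MAF protein, and for the site of AP-1 factors, TGANTCA, on both strands. The motifs can overlap. Promoters were taken from RefSeq on GRCm38.p6 and matched 47 of the 52 genes. The antioxidant response element core was found in 9 of the 60 promoters listed for them (15%, of 9 genes), beside 10.2% of all 32851 promoters. The AP-1 site was found in 6 of the 60 (10%, of 6 genes), beside 6.75%. Of the called genes with a promoter listed, Mgst1 held the former and Srxn1 the latter, while Gstm2, Gpx7 and Gpx8 held neither. A match is a description of letters and no evidence of binding.

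The promoters of Srxn1, which fell, Mgst1, which rose, and Prdx1 and Gclm, which were not called, are shown because they hold these letters and the genes went different ways. All read 5′ to 3′ on the plus strand of GRCm38.p6, with motif letters in capitals. Srxn1 holds 2 AP-1 sites and, in the letters searched, no antioxidant response element core in this window. Its AP-1 site nearer the start site is followed by gc, and TGAGTCAgc differs from TGACNNNGC only by G in place of C. Mgst1 and Gclm hold 1 core each, read on the reverse strand, and Prdx1 holds 2 AP-1 sites, of which 1 overlaps its core.
Srxn1, chr2:152105274-152105523: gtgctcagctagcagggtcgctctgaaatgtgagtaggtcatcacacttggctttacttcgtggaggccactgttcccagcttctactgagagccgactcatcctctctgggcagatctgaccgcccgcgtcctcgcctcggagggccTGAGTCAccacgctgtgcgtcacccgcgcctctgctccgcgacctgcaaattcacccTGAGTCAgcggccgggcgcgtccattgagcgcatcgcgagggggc
Mgst1, chr6:138140277-138140526: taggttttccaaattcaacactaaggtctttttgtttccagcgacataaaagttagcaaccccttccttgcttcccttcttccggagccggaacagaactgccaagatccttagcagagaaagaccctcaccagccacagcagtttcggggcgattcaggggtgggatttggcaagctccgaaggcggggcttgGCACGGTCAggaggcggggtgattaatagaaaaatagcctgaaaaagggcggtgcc
Prdx1, chr4:116685349-116685598: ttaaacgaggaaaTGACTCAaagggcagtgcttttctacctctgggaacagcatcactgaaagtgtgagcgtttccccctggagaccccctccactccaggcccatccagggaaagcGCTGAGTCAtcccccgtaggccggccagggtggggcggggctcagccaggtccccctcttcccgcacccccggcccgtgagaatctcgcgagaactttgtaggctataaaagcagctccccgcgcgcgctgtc
Gclm, chr3:122245307-122245556: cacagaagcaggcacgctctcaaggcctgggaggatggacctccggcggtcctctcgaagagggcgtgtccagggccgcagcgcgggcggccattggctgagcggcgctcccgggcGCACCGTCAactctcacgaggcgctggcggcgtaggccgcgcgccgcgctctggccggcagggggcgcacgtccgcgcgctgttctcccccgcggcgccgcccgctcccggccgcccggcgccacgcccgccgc
Srxn1 changed by -1.51 and Mgst1 by 1.80, while the differences of Prdx1 and Gclm were -0.13 and -0.53. Mgst1 has another promoter listed, which holds neither motif. The carriers of a core included a gene that rose and genes that were not called, and Hmox1 has no promoter listed.

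Other genes of the same pathways were taken from lists of glutathione supply and use, thioredoxin-related genes, NADPH supply, and NRF2 partners and targets. Of 91 genes listed 66 were measured, and 8 fell (12.1%) and 0 rose by limma, beside 5.63% of all genes lower and 4.47% higher. At an unadjusted p below 0.05 14 were lower (21.2%, beside 13.1% of all genes) and 2 higher (3.03%, beside 13.4%). The median change was -0.07.

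Akr1b8, an aldo-keto reductase of aldehydes, had 8.49, 8.30 and 9.25 in the control and 5.56, 5.27 and 6.002 in the knockout tumours. The groups lay more than 2 log2 units apart. The change was -3.07 ± 0.31 (SE, adjusted p = 0.0032), and -1.41 with the authors' values. Cbr3, a carbonyl reductase, fell from 9.32 ± 0.38 to 7.25 ± 0.43 (SD, n = 3 each), a change of -2.07 ± 0.29 (SE, adjusted p = 0.0074). Nqo2, a relative of Nqo1 that uses another electron donor, gave -1.30 ± 0.26 (SE, adjusted p = 0.023), and its call was lost without control 1, control 3 or knockout 2 (adjusted p = 0.101, 0.076 and 0.085). Its other probes gave -0.99, not called, and -1.49, called. These are 3 of the 22 measured NRF2 partners and targets (13.6%, beside 5.63% of all genes), and 0 of the 22 rose. Nfe2l3, a relative of Nfe2l2, gave 1.03 ± 0.31 (SE, adjusted p = 0.081).

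Of 18 measured genes of glutathione supply and use 3 fell (16.7%, beside 5.63% of all genes). Abcc4, an exporter of organic anions, had 7.001, 6.59 and 7.99 in the control and 4.67, 4.80 and 4.94 in the knockout tumours, where 1 of 3 was above background. The change was -2.39 ± 0.35 (SE, adjusted p = 0.0081), and -0.71 with the authors' values (adjusted p = 0.058). Ggct, which recycles gamma-glutamyl amino acids, gave -1.48 ± 0.22 (SE, adjusted p = 0.0084), but another probe gave -0.29. Esd, which hydrolyses formylglutathione, gave -1.50 ± 0.33 (SE, adjusted p = 0.032), a call that held without knockout 1 but was lost when any other tumour was left out (adjusted p = 0.063 to 0.113). The Esd call was also lost with the authors' values (-0.94, adjusted p = 0.0589) and without the filter on dim probes (adjusted p = 0.113). Its other probes gave -1.13, called, and -1.19, not called. Slc7a11, the cystine importer that feeds glutathione synthesis, gave -1.26 ± 0.35 (SE, adjusted p = 0.065), and another probe -0.31. Glrx3, a glutaredoxin, gave -0.64 (adjusted p = 0.072), but another probe gave 0.0008.

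Of 17 measured thioredoxin-related genes only Txnip fell (5.88%, near the 5.63% of all genes). Its change was -1.66 ± 0.39 (SE, adjusted p = 0.038). That call held without control 2 but was lost when any other tumour was left out (adjusted p = 0.066 to 0.129). The Txnip call was also lost with the authors' values (adjusted p = 0.0723), without background correction (0.0576) and without the filter on dim probes (0.137). Another Txnip probe was called at -2.23 (adjusted p = 0.0203). Its product binds and inhibits thioredoxin, so it opposes the system the list is named for. Nxn, nucleoredoxin, gave -1.02 (adjusted p = 0.093). Of 9 measured genes of NADPH supply only Me2 fell (11.1%, beside 5.63% of all genes). The change of Me2 was -1.10 ± 0.18 (SE, adjusted p = 0.012), and -0.32 with the authors' values. Its call was lost without control 1 or knockout 2 (adjusted p = 0.057 and 0.054). Me2 is the mitochondrial malic enzyme, known to work mainly with NAD. Tkt and Idh1, also on the NADPH supply list, gave 0.07 and -0.13 and were not called.

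**Figure D4:**
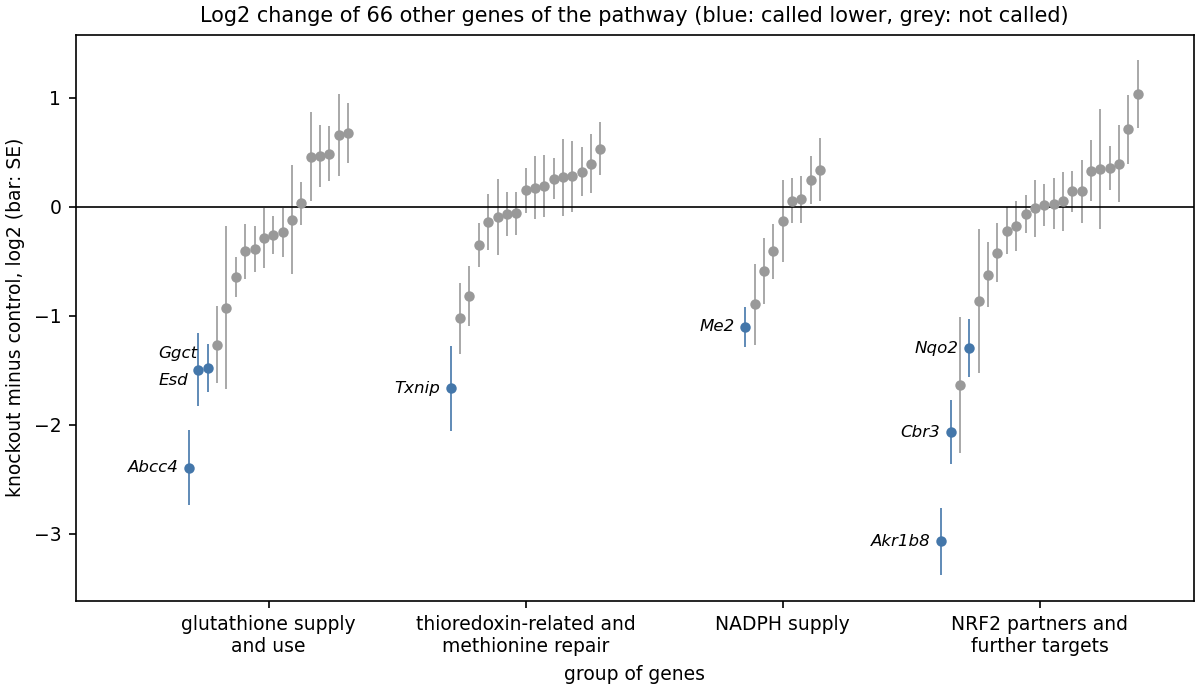
Log2 change (vertical axis, knockout minus control, with SE bars) of 66 other genes of the pathway in 4 groups, sorted by size within a group. The 8 called genes are named and lie between -3.07 and -1.10, and no gene was called higher.

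Calls were lost when single tumours were left out. Without control 1 none of the 6 antioxidant enzyme genes passed, at limma adjusted p-values of 0.0511 for Gstm2, 0.0562 for Mgst1, 0.0566 for Srxn1, 0.0585 for Hmox1, 0.0717 for Gpx8 and 0.0735 for Gpx7. The changes were then -3.39, 1.61, -1.72, -2.79, -2.60 and -3.07 in the same order, and the genes called over the whole array numbered 248 in place of 945. Without control 3, Gpx7 (0.0581) and Gpx8 (0.0694) did not pass. Without knockout 2, Gpx7 (0.0547), Hmox1 (0.0562) and Srxn1 (0.0685) did not pass, and without knockout 3, Srxn1 (0.0639) did not. Without the filter on dim probes only Mgst1 passed (0.0437). Akr1b8 and Cbr3 passed under all 15 alternatives.

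**Figure D5:**
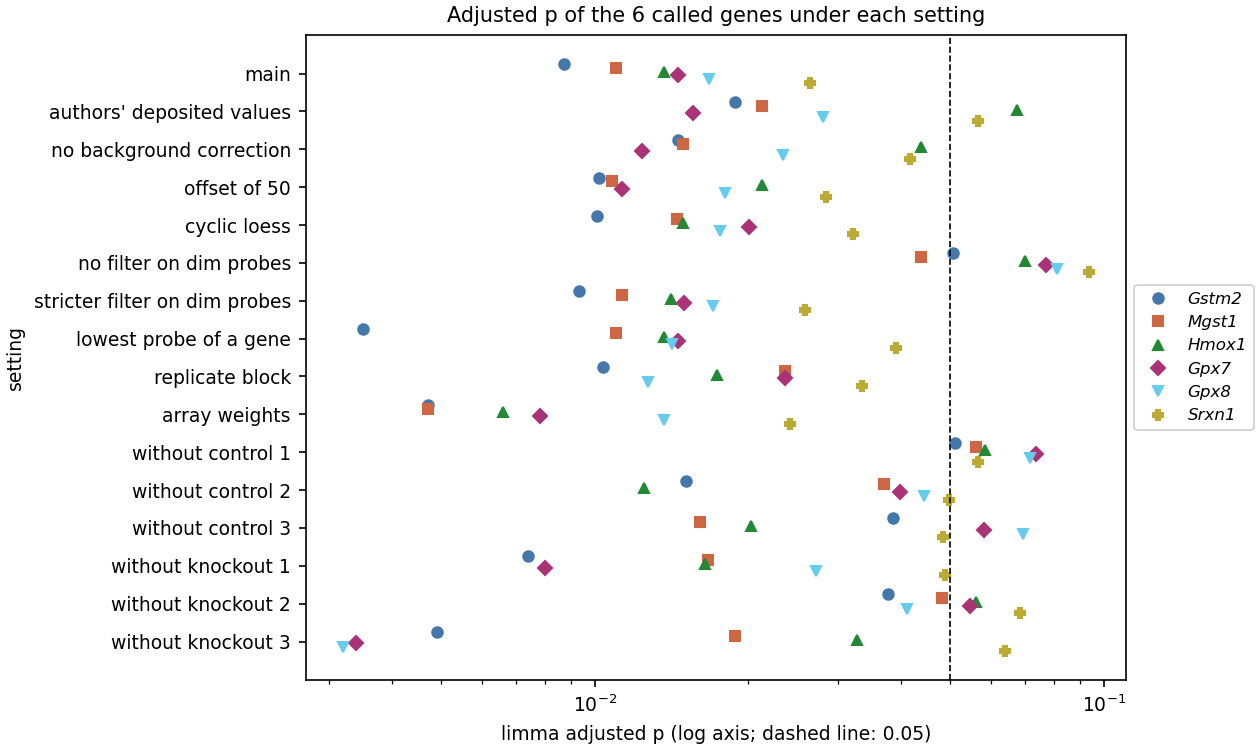
Limma adjusted p (horizontal log axis, dashed line at 0.05) of the 6 called antioxidant enzyme genes (symbols) under the main setting and 15 alternatives (rows). All 6 lie right of the line without control 1, and 5 of the 6 do without the filter on dim probes.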

How the data were processed

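Total RNA of 6 breast tumours was hybridised to Illumina mouse arrays, per the labels. The authors deposited a signal intensity and a detection p-value per probe and array, not normalized, per the file headers, and also normalized log2 values, for which the submitters' processing notes name lumi 2.6.0. What else was done to those values, such as their normalization, is not stated in these sources. Broken lines, 4 in number and belonging to 2 probes, were left out, leaving 45279 probes.

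Signals were normalized with neqc (limma 3.58.1, R 4.3.3, offset 16), the background being inferred from detection p-values. Probes detected (p below 0.05) on at least 3 arrays were tested with lmFit and eBayes, two-sided, with Benjamini-Hochberg adjustment over all of them. The offset compresses changes of dim probes, and the number of arrays limits precision. For a probe undetected throughout a group, a bound was formed from the mean of the bright group and, on each dim array, the probe's own value or the floor (lowest detected signal), whichever was higher. Symbols came from the platform annotation, with 34883 probes tied to 1 symbol, 18 to several and 10378 unnamed here. Against GRCm38.p6 gene numbers 0 symbols changed. The brightest kept probe stands for a gene. Levels of different probes were not compared.

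The genes, lists and tests were chosen with earlier results of these data known. Genes given in full were those with a called probe, Gclm, Nfe2l2, Keap1, Nqo1, Hmox1, Txnrd1 and Srxn1. Other members are given by their log2 difference, and those of them shown by tumour were chosen after their values were seen. From the other lists, called genes and the 4 next by p were named, and Tkt and Idh1 were chosen after their values were seen. Other cell type lists gave medians over few genes: basal and myoepithelial -2.45 (9 genes), T and NK cell -0.37 (2), B and plasma cell 0.18 (2), neutrophil and mast cell 1.25 (2), endothelium -1.60 (2), adipocyte -1.84 (2) and skeletal muscle -0.87 (3), while none of the 9 red cell genes listed was measured. The basal and myoepithelial list was mixed. Of the 9 genes 4 were called lower (44.4%, beside 5.63% of all genes) and 1 higher (11.1%, beside 4.47%). Acta2, Actg2, Myh11 and Tagln fell by limma, at -2.45, -3.90, -3.17 and -4.93 (adjusted p = 0.045, 0.021, 0.0031 and 0.0032). Mylk gave -2.64 and was not called (limma adjusted p = 0.079). Krt14 was called higher (1.39, limma adjusted p = 0.044), and Trp63, Krt17 and Krt5 gave 1.55, 0.12 and -0.11.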

Additional observations from a re-analysis of the deposited data

How the results depend on the processing

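The direction of each called gene was the same under all 15 alternatives. Of the antioxidant enzyme probes 12 were called, and 3 without the filter on dim probes. The count of genes called lower, 5 in the main setting, was 3 with the authors' values, 0 without the filter, 9 with the replicate block and 8 with array weights. The count called higher, 1 in the main setting, was 2 with the replicate block and 3 with array weights. Of the other pathway genes 8 were called lower, and 5 with the authors' values or without the filter. Leaving out each tumour in turn gave 2 to 15 called probes, 0 to 7 genes lower, 0 to 3 higher and 4 to 8 other pathway genes lower. The median change of the members ran from -0.25 to -0.13 in these runs. Differences that turned sign were none of them called: Nqo1 gave 0.26 with array weights and -0.77 to 0.53 with a tumour left out, and with a tumour left out Nfe2l2 ran from -0.39 to 0.0077, Keap1 from -0.24 to 0.031 and Txnrd1 from -0.23 to 0.12. Over all tested probes 1461 were called, 723 without the filter, and 375 to 1534 with a tumour left out. The cause of these changes was not tested, and leaving out knockout 1 raised the counts, to 15 and 1534 probes. Deviations of same-numbered tumours correlated weakly (0.23, 0.09 and 0.06), and those of differently numbered tumours gave -0.20 to 0.08. With 3 tumours per group these values cannot tell whether the numbers pair the tumours. The labels name no pairing, and the replicate block is given for its counts alone. It ended the calls of Esd (adjusted p = 0.062) and Txnip (0.068), which also failed in 5 of 6 runs with a tumour left out.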

Other observations

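The antioxidant enzymes also varied within the groups. Control 3 was the highest of the 6 tumours for 22 of the 44 measured genes and the lowest for 2, and knockout 1 was the lowest for 14. The shares over all genes are not given here, so these counts may not be particular to the antioxidant enzymes. The median deviation of the 44 genes from their control means was -0.17, -0.22 and 0.36 log2 units in control tumours 1, 2 and 3. Control 3 also had the smallest summed signal, 1.07e+07, before normalization. The part of this in the values was not tested.

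Several genes split the knockout tumours. In knockout tumours 1, 2 and 3 the log2 values were 7.38, 9.24 and 8.93 for Gstk1, 6.15, 8.01 and 7.97 for Gstt1, 8.80, 10.60 and 10.12 for Gstt3 and 5.55, 7.46 and 7.27 for Nqo1. Knockout 1 was the lowest each time. The neutrophil markers S100a8 and S100a9 were also lowest in knockout 1, their mean lying at -1.53, 2.00 and 3.29 from the control mean. These genes were chosen after their values were seen.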
